A study of Mus musculus with 2 samples.

Results

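The liver clears drugs, hormones and plant chemicals by oxidising them and then joining them to a soluble group, and the enzymes of both steps are described here cell type by cell type in YFP+ cells of a mouse liver cancer model. The gene set was chosen by name and holds 38 of the 31053 annotated genes: 21 cytochrome P450 genes, the P450 reductase gene Por, 8 glutathione transferase genes, 4 UDP-glucuronosyltransferase genes, the sulfotransferase gene Sult1a1, the methyltransferase genes Nnmt and Tpmt, and the epoxide hydrolase gene Ephx1. The series compared macroscopic lesions with early lesions of hepatocellular carcinoma by single-cell RNA sequencing (10x, 3′ v3 chemistry), with 1 library per stage. All mice carried the Rb family triple knockout, in which Rb1, Rbl1 and Rbl2, the genes of the retinoblastoma protein and its relatives p107 and p130, are inactivated. YFP marks cells in which Cre recombined the floxed alleles. The early library came from a pool of 3 mice. The labels do not give the number of mice behind the macroscopic library, the ages, or what drives Cre. Cells were primary liver cells from untreated mice, no map links cells to mice, and no library of cells without the deletion was analysed here.

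Cytochrome P450 enzymes sit mainly in the endoplasmic reticulum, take electrons from the reductase Por and insert oxygen into their substrates. Conjugating enzymes then attach glutathione, glucuronic acid, sulfate or a methyl group to the product. In healthy liver most of these genes are strongest in hepatocytes. Many, Cyp2e1, Cyp1a2 and several Cyp2c genes among them, are strongest near the central vein, whereas Cyp2f2 is strongest near the portal tract. Several are sex-biased in the mouse, with Cyp2d9, Cyp7b1 and Gstp1 higher in males and Cyp2b9 and Cyp2a4 higher in females.

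The 250 bases before the RefSeq transcript start are shown for 4 genes that stand for the patterns in the data: Cyp2e1, near 0 in hepatocyte barcodes; Cyp3a11, high in many hepatocyte barcodes of early lesions; Gsta3, level across the stages; and Gstp1, higher in macroscopic lesions. The sequences are from RefSeq on GRCm38.p6, at chr7:140763569-140763818 (plus strand), chr5:145879855-145880104 (minus strand), chr1:21240335-21240584 (plus strand) and chr19:4037913-4038162 (minus strand), written 5′ to 3′ along the gene, with motif matches in capitals.
Cyp2e1: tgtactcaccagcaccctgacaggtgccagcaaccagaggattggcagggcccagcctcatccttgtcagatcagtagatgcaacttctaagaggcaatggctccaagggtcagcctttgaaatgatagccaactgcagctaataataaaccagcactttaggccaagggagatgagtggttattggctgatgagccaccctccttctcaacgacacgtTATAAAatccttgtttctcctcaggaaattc
Cyp3a11: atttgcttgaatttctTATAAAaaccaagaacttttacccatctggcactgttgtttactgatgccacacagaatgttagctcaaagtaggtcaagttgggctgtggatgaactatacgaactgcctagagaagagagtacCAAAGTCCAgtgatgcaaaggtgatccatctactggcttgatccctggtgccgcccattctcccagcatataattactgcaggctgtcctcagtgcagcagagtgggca
Gsta3: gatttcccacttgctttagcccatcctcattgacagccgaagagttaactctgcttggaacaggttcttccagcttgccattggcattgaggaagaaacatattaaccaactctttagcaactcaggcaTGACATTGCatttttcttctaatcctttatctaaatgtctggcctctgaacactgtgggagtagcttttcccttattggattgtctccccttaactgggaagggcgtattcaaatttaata
Gstp1: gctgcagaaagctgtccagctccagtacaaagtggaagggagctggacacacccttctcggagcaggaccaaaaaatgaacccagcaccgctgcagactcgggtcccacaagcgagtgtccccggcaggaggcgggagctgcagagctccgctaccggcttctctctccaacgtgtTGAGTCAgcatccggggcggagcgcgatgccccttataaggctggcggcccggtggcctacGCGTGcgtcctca
The capitals in Cyp2e1 mark a TATA box (TATAAA) that begins 31 bases before the start. In Cyp3a11 they mark TATAAA 234 bases before the start and CAAAGTCCA, a site of the hepatocyte factor HNF4, 109 bases before it. Those in Gsta3 mark an antioxidant response element (TGACNNNGC) at 121 bases, and those in Gstp1 an AP-1 site (TGANTCA) at 74 bases and a xenobiotic response element core (GCGTG) at 13 bases. GENCODE M21 places the start of Cyp2e1, Cyp3a11 and Gstp1 80, 110 and 73 bases upstream of the RefSeq start.

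Promoters were found for 33 of the 38 genes (36 promoters), and each motif was searched on both strands. TATAAA was in 36.1% of these 36 promoters and 12.4% of all 32851, and CAAAGTCCA, in the promoters of Cyp3a11 and Cyp8b1, in 5.56% of these 36 promoters and 0.384% of all 32851. The AP-1 letters were in 11.1% of these 36 promoters and 6.75% of all 32851, the antioxidant response letters in 8.33% of these 36 promoters and 10.2% of all 32851, and GCGTG in 13.9% of these 36 promoters and 28.2% of all 32851. The HNF1 site was in 0 of the 36 and in 0.103% of all promoters. A match describes letters only and shows no binding.

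Barcodes with at least 1000 UMIs (unique molecular identifiers, 1 per captured RNA molecule) were sorted by marker genes. Hepatocyte barcodes had Alb, the albumin gene, at 0.5% of UMIs or more: 103 of 241 barcodes in the macroscopic library and 67 of 2620 in the early library, with medians of 23459 and 15463 UMIs. Among barcodes with less Alb, the early library held 89 duct (Krt19 plus Krt7 at least 2 UMIs), 1832 Kupffer (Clec4f, Cd5l and Marco at least 3 in sum) and 199 other macrophage barcodes (Gpnmb plus Mmp12 at least 3); the macroscopic library held 0, 1 and 8. Cell types were therefore compared within the early library. No cell barcode was shared by the libraries. Hepatocyte barcodes carried all 9 of a list of hepatocyte markers, at 42457 CPM (a gene's UMIs over all UMIs of the summed barcodes, scaled to counts per 1000000) in the macroscopic and 37561 CPM in the early library, against 5738 CPM in duct and 907 CPM in Kupffer barcodes. They also held duct markers, at 5413 and 7134 CPM, and 10 of the early hepatocyte barcodes met the duct rule as well. Kupffer markers summed to 14.8 and 59.5 CPM there, with Timd4 at 0 UMIs in both. The targeted genes had few UMIs in hepatocyte barcodes: 29 and 21 for Rb1, 2 and 0 for Rbl1, and 22 and 12 for Rbl2, macroscopic and early; 3′ tags outside a deleted part check nothing. Xist, expressed from the inactive X chromosome, had 0 UMIs in the macroscopic and 10149 in the early library, and 4 Y-linked genes together 752 and 0, so stage and sex cannot be told apart in any difference below. With 1 library per stage no test was possible, and every interval, given in brackets at the 95% level, covers counting error only.

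**Figure D1:**
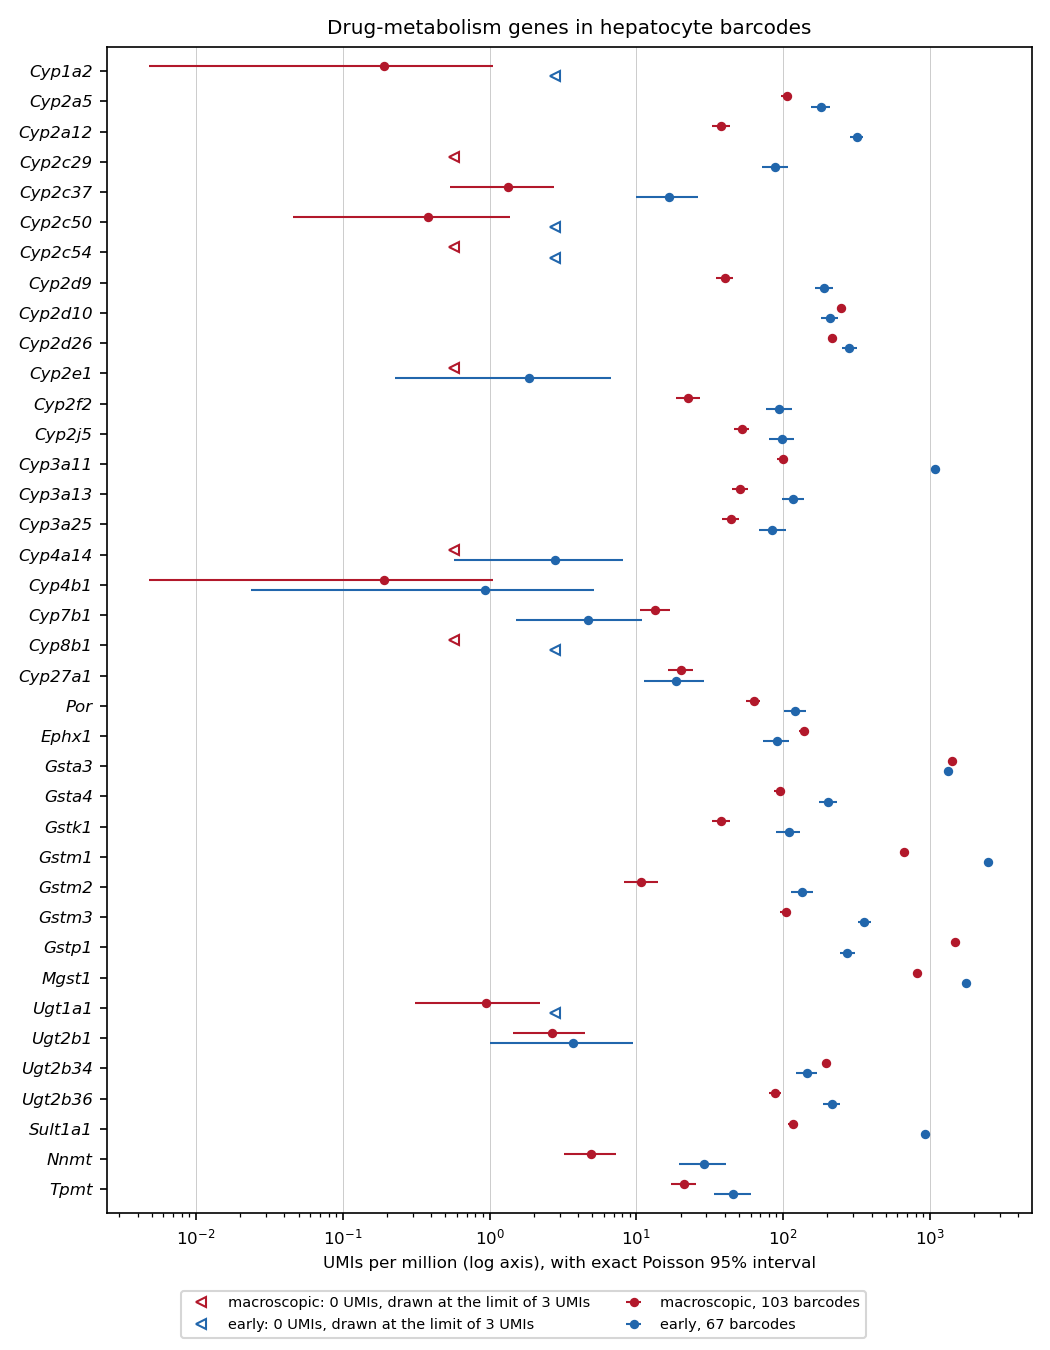
Levels of the 38 genes in hepatocyte barcodes, in CPM on a log axis, with exact Poisson 95% intervals, for the macroscopic and the early library. Gstp1 stood at 1491 CPM in the macroscopic and 274 CPM in the early library, Gsta3 at 1418 and 1322 CPM, and Cyp3a11 at 99.8 and 1079.9 CPM.

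Between the stages, the P450 genes as a sum were lower in macroscopic hepatocyte barcodes and the glutathione transferases stood in another order. UMIs of the 21 P450 genes summed to 951 CPM in macroscopic and 2784 CPM in early hepatocyte barcodes, those of the 8 glutathione transferases to 4642 and 6615 CPM, and all 38 genes to 6222 and 10967 CPM. A gene counted as measured with at least 10 CPM in 1 or both of the 2 sums and at least 20 UMIs over both sums together. Of the 38 genes, 29 met this, 4 of them through 1 sum only. A gene measured through 1 sum only is higher in that sum, so here and below the filter fixed its direction. Of these 29, 2 were higher by 2-fold or more in macroscopic barcodes and 17 lower by 2-fold or more, where of 9057 measured genes 8.45% were higher and 18.9% lower. The interval lay wholly past 2-fold for 1 of the 2 and 14 of the 17, counting the bound for Cyp2c29. The median log2 ratio was -1.11, and -0.29 over all measured genes. With hepatocyte barcodes of Malat1 at 0.05% of UMIs or more only, all 19 calls were kept. Over all 12 settings tried, 10 were kept, and Cyp2c37, Cyp3a13, Cyp7b1, Gsta4, Gstm3, Mgst1, Nnmt, Tpmt and Ugt2b36 lost theirs in 1 or more.

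**Figure D2:**
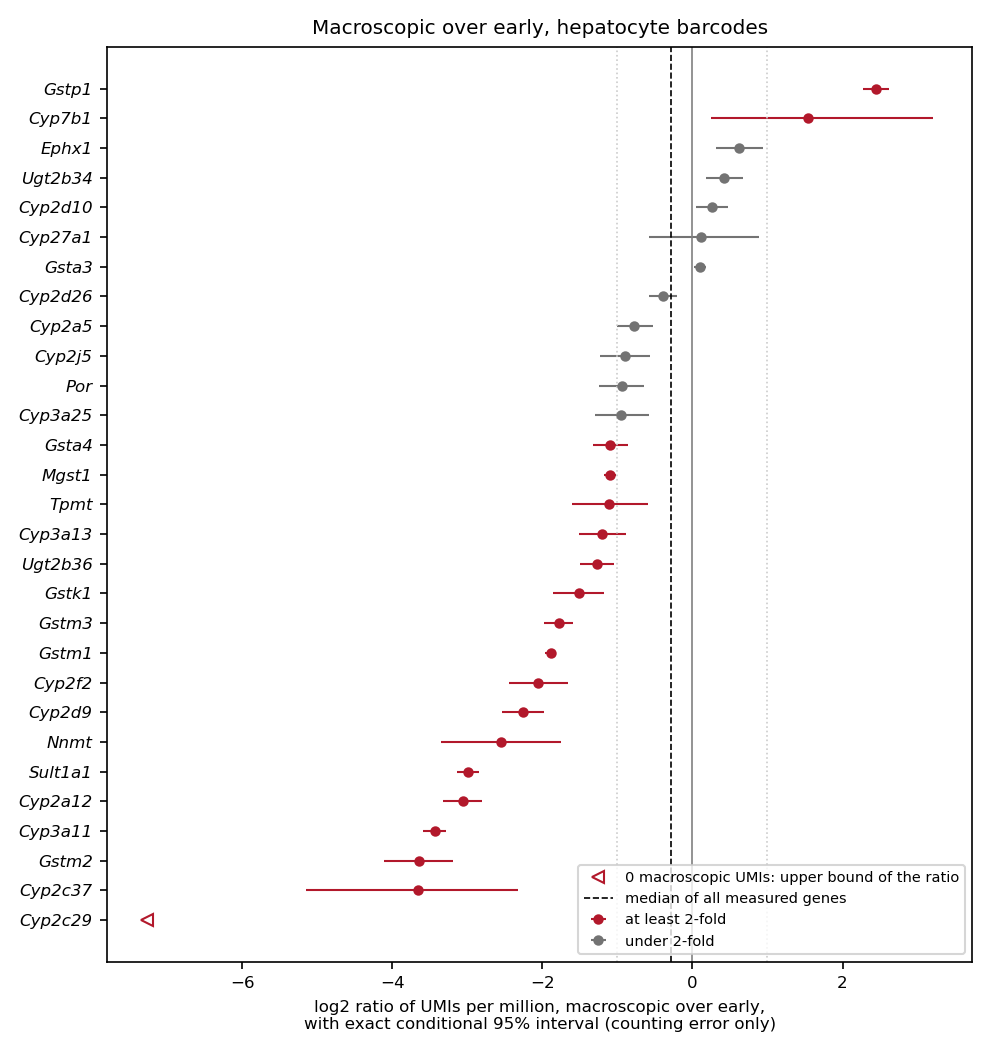
Ratio of macroscopic to early levels in hepatocyte barcodes for the measured genes, on a log2 axis, with exact 95% intervals. Gstp1 stands farthest to the higher side at 5.44-fold, and Cyp2c29, drawn as a bound, farthest to the lower side.

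Cyp3a11 (ENSMUSG00000056035, chromosome 5, 145854426 to 145879964, minus strand), the main drug-oxidising P450 of the Cyp3a family in mouse liver, was the most abundant P450 gene of early hepatocyte barcodes. It had 99.8 CPM (91.5 to 109) in macroscopic and 1079.9 CPM (1019 to 1144) in early barcodes, 10.8-fold lower (9.75 to 12.0). The other Cyp3a genes differed less: Cyp3a13 had 50.9 CPM in macroscopic barcodes and 117 CPM in early barcodes, 2.303-fold lower (1.85 to 2.86), and Cyp3a25 43.8 and 84.6 CPM, within 2-fold. With Cyp3a11 low, the Cyp2d genes led the P450 genes of macroscopic barcodes. Cyp2d10 stood at 248 CPM in macroscopic barcodes and 207 CPM in early barcodes, and Cyp2d26 at 215 and 283 CPM, both within 2-fold. Cyp2d9, a testosterone hydroxylase that is male-biased in mouse liver, was lower, at 39.8 CPM in macroscopic barcodes and 191 CPM in early barcodes (4.78-fold lower, 3.92 to 5.82).

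Among the Cyp2a genes, the steroid hydroxylase gene Cyp2a12 had 37.95 CPM in macroscopic barcodes and 317 CPM in early barcodes and was 8.35-fold lower (6.99 to 9.99). Cyp2a5, which encodes the mouse coumarin hydroxylase, had 106 and 180.3 CPM, within 2-fold. Cyp2f2, the naphthalene-oxidising P450 of the periportal zone, had 22.6 CPM in macroscopic barcodes and 93.9 CPM in early barcodes, 4.16-fold lower (3.16 to 5.46). Cyp2j5, an arachidonic acid epoxygenase gene, stood at 52.2 and 97.6 CPM. Genes of 1 family could thus differ in ratio: Cyp2a5 and Cyp2a12, neighbours on chromosome 7, stood at -0.77 and -3.06 on the log2 scale.

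Several pericentral P450 genes were nearly absent. Cyp2e1 (ENSMUSG00000025479, chromosome 7, 140763739 to 140774987, plus strand), which oxidises ethanol and paracetamol and is abundant in healthy liver, had 0 UMIs in 103 macroscopic and 2 UMIs in 67 early hepatocyte barcodes; 0 UMIs allow up to 0.569 CPM in the macroscopic sum. Cyp1a2, which oxidises caffeine, had 1 and 0 UMIs. Of the Cyp2c epoxygenase genes, Cyp2c54 had 0 in both libraries, Cyp2c50 2 and 0, and Cyp2c37 7 and 18. Cyp2c29 (ENSMUSG00000003053, chromosome 19, 39269405 to 39330713, plus strand) set the stages apart. It had 0 UMIs in macroscopic and 95 UMIs (88.3 CPM, 71.4 to 108) in early hepatocyte barcodes, at least 155-fold lower against a floor of 3 counts in the macroscopic sum. These 95 UMIs lay in 20 of 67 early barcodes. The fatty acid hydroxylase genes Cyp4a14 and Cyp4b1 had 0 and 1 UMIs in macroscopic barcodes, and 3 and 1 in early ones.

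Bile acid P450 genes followed their own pattern. Cyp8b1, the sterol 12-alpha-hydroxylase gene, had 0 UMIs in hepatocyte barcodes of both libraries. Cyp27a1, the mitochondrial sterol 27-hydroxylase gene, was level at 20.1 CPM in macroscopic barcodes and 18.6 CPM in early barcodes, with an interval of 0.667 to 1.84 around a 1.08-fold ratio, the only interval among the 29 that held 1. Cyp7b1, the oxysterol 7-alpha-hydroxylase gene, was 1 of the 2 higher genes, 2.90-fold higher (1.19 to 9.203). It had 71 UMIs (13.5 CPM) in macroscopic and 5 UMIs (4.65 CPM) in early barcodes. It was measured through the macroscopic sum only, so the filter fixed its direction, and under a 50 CPM minimum it was not measured. Por, which supplies all of the microsomal P450 enzymes with electrons, stood at 62.8 CPM in macroscopic barcodes and 121 CPM in early barcodes, within 2-fold.

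Glutathione transferase genes led the conjugating genes in both libraries, and their order differed between the stages. Gstp1 (ENSMUSG00000060803, chromosome 19, 4035407 to 4037985, minus strand) had 1491 CPM (1458 to 1524) in macroscopic and 274 CPM (244 to 307) in early hepatocyte barcodes, 5.44-fold higher (4.84 to 6.13). Gsta3 (ENSMUSG00000025934, chromosome 1, 21240589 to 21265661, plus strand), an alpha class transferase gene, was level, at 1418 CPM in macroscopic barcodes and 1322 CPM in early barcodes. Gstm1 (ENSMUSG00000058135, chromosome 3, 108012255 to 108017973, minus strand), of the mu class, had 667 CPM in macroscopic barcodes and 2467 CPM in early barcodes, 3.70-fold lower (3.51 to 3.89). Gstp1 and Gsta3 thus led in macroscopic barcodes, and Gstm1 and the membrane-bound Mgst1 in early ones. Mgst1 (ENSMUSG00000008540, chromosome 6, 138140316 to 138156755, plus strand) had 817 CPM in macroscopic barcodes and 1748 CPM in early barcodes, 2.14-fold lower (2.02 to 2.26).

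The other mu class genes were lower too. Gstm2 had 10.8 CPM in macroscopic barcodes and 135 CPM in early barcodes and was 12.5-fold lower (9.11 to 17.2), and Gstm3 had 104 and 358 CPM and was 3.45-fold lower (3.02 to 3.93). Gsta4, whose enzyme clears the lipid peroxidation product hydroxynonenal, had 94.9 CPM in macroscopic barcodes and 203 CPM in early barcodes, 2.14-fold lower (1.81 to 2.51). Gstk1, of mitochondria and peroxisomes, had 37.95 and 109 CPM, 2.86-fold lower (2.26 to 3.62). In macroscopic barcodes with Malat1 below 0.05% of UMIs set against the early library, Gstm3, Gsta4 and Mgst1 were within 2-fold, as Gsta4 and Mgst1 were under median-of-ratios scaling.

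Glucuronidation genes were present in part. Ugt1a1, which conjugates bilirubin, had 5 and 0 UMIs in macroscopic and early hepatocyte barcodes, and Ugt2b1 14 and 4. Neither was measured, and the Ugt1a1 count does not give its level, since the Ugt1a genes share their transcript end. Ugt2b34 (ENSMUSG00000029260, chromosome 5, 86889767 to 86906937, minus strand) was within 2-fold, at 194 CPM in macroscopic barcodes and 145 CPM in early barcodes, and Ugt2b36 was 2.42-fold lower (2.05 to 2.84), at 88.4 against 214 CPM. Sult1a1 (ENSMUSG00000030711, chromosome 7, 126672865 to 126676432, minus strand), which sulfates phenols, differed more, with 116 CPM (107 to 126) in macroscopic and 920.0 CPM (864 to 979) in early barcodes, 7.92-fold lower (7.16 to 8.78). Of the methyltransferase genes, Nnmt, which methylates nicotinamide, had 4.93 CPM in macroscopic barcodes and 28.8 CPM in early barcodes, 5.84-fold lower (3.36 to 10.2), and Tpmt, which methylates thiopurines, 21.1 and 45.5 CPM, 2.16-fold lower (1.51 to 3.05). Ephx1, the microsomal epoxide hydrolase gene, was within 2-fold on the higher side, at 138 CPM in macroscopic barcodes and 90.1 CPM in early barcodes.

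Shares of hepatocyte barcodes with a UMI were read after thinning each barcode to 1000 UMIs, since the libraries differ in depth. Unthinned, 28 genes of the set were found in at least 10% of hepatocyte barcodes in each library. Thinned, 8 were in macroscopic and 15 in early barcodes. No such count over all genes was made, so a library-wide difference in detection was not set apart from one of these enzymes. The thinned share for Gstp1 was 64.9% of macroscopic and 20.5% of early barcodes (unthinned 91.3% and 77.6%). For Cyp3a11 it was 9.39% and 44.0% (unthinned 55.3% and 68.7%), for Sult1a1 9.48% and 47.4% (unthinned 71.8% and 83.6%), and for Gsta3 67.8% and 59.7% (unthinned 97.1% and 89.6%). The order of the stages in each case was that of the CPM. In 99 early lymphoid barcodes (median 2612 UMIs), a cell type in which these genes should be low, the thinned shares were 2.37% for Gstp1, 0.522% for Cyp3a11 and 0.991% for Sult1a1, and Gsta3 had no UMI there.

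Further drug-metabolism genes and lists of zone, sex and regulation set the 38 genes in context. Of 130 further P450, conjugation, oxidation and hydrolysis genes, 69 were measured, 18 of them through 1 sum only. Of the 69, 8 (11.6%) were higher and 23 (33.3%) lower by 2-fold or more in macroscopic hepatocyte barcodes, with a median log2 ratio of -0.58. Of 9057 measured genes, 8.45% were higher and 18.9% lower, at a median of -0.29, so the higher share was near that of all genes. The most abundant of them were Cyb5a, the cytochrome b5 that aids P450 reactions, at 699 and 978 CPM in macroscopic and early barcodes, the alcohol dehydrogenase gene Adh1 at 506 and 758 CPM, Cyp2a4 at 66.6 and 613 CPM, Gstp3 at 401 and 517 CPM, and Cyb5r3, the cytochrome b5 reductase gene, at 454 and 249 CPM. The lowest ratios were those of Cyp2b9 (2 and 113 UMIs, 277-fold lower, 74.8 to 2313), the sulfotransferase gene Sult1d1 (2.09 and 84.6 CPM) and the steroidogenic P450 gene Cyp17a1 (1.14 and 29.7 CPM). The highest were those of the carboxylesterase gene Ces2c (76 and 1 UMIs, 15.5-fold higher, 2.70 to 621), Nat8 (176 and 3 UMIs) and Ugt3a2 (110 and 3 UMIs).

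Regulators of these enzymes stayed within 2-fold in all of the 14 measured of 17, at a median of -0.11. Beside this and the lists below, 8.45% of 9057 measured genes were higher and 18.9% lower by 2-fold or more, at a median of -0.29. Those with the most UMIs were the hepatocyte factor genes Cebpa (228 CPM macroscopic and 225 CPM early) and Hnf4a (126 and 172 CPM), the growth hormone receptor gene Ghr (122 and 75.3 CPM) and Nfe2l2, of the oxidative stress response (95.4 and 166 CPM). Of genes female-biased in mouse liver, 7 of 18 were measured, 5 of them through 1 sum only. All 7 were lower in macroscopic barcodes, and for those 5 the filter fixed that direction. Among the 7 were Cyp2a4, Sult2a1 (84.4 and 194 CPM), Cyp2b9 (0.380 and 105 CPM) and the peroxisomal oxidase gene Hao2 (2.47 and 68.8 CPM). Of male-biased genes, 6 of 12 were measured, 1 of them, Cyp7b1, through the macroscopic sum only, which fixed its direction. Of these 6, 3 were higher (Gstp1, Cyp7b1 and the protease inhibitor gene Serpina1e, at 539.9 and 254 CPM) and 2 lower (Cyp2d9 and the urinary protein gene Mup20, at 146 and 1806 CPM). Both stage-higher genes of the 38 are on the male-biased list, Cyp7b1 with a direction that the filter fixed. Cyp2d9 and Mup20, which were lower, are on it too. Stage and sex cannot be told apart in these values. Pericentral genes were measured for 13 of 24, 3 of them through 1 sum only, with 2 higher (15.4%) and 7 lower (53.8%). Periportal genes were measured for 17 of 18, 0 of them through 1 sum only, with 1 higher (5.88%) and 6 lower (35.3%). The lists share genes with the 38.

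Macroscopic hepatocyte barcodes fell into 45 with the nuclear RNA Malat1 at 0.05% of UMIs or more (median 107248 UMIs and 7.59% mitochondrial UMIs) and 58 below it (median 17791 UMIs and 0.220%). The P450 sum was 974 CPM in the Malat1 group and 887 CPM below it, and the glutathione transferase sum 3932 and 6607 CPM. Of 26 measured genes, 1 through 1 sum only, 3 were higher by 2-fold or more in the Malat1 group and 4 lower, where of 8430 measured genes 46.2% were higher and 1.66% lower; the medians were -0.22 for the 26 and 0.81 for all. The higher genes were Ugt2b34 (240.4 and 66.6 CPM, 3.61-fold higher, 2.92 to 4.52), Por (75.9 and 26.5 CPM) and Cyp2f2 (26.3 and 12.2 CPM). The lower ones were Cyp2a5 (69.2 and 206 CPM), Gstm3 (73.3 and 188 CPM), Gsta4 (72.6 and 157 CPM) and Gstp1 (1178 and 2357 CPM). Only Ugt2b34 and Gsta4 kept their call under all settings tried, and with all genes scaled to a common median 14 genes were lower and 1 higher. The early library had 4 hepatocyte barcodes below the limit, at a median of 93.5% mitochondrial UMIs, too few to compare.

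**Figure D3:**
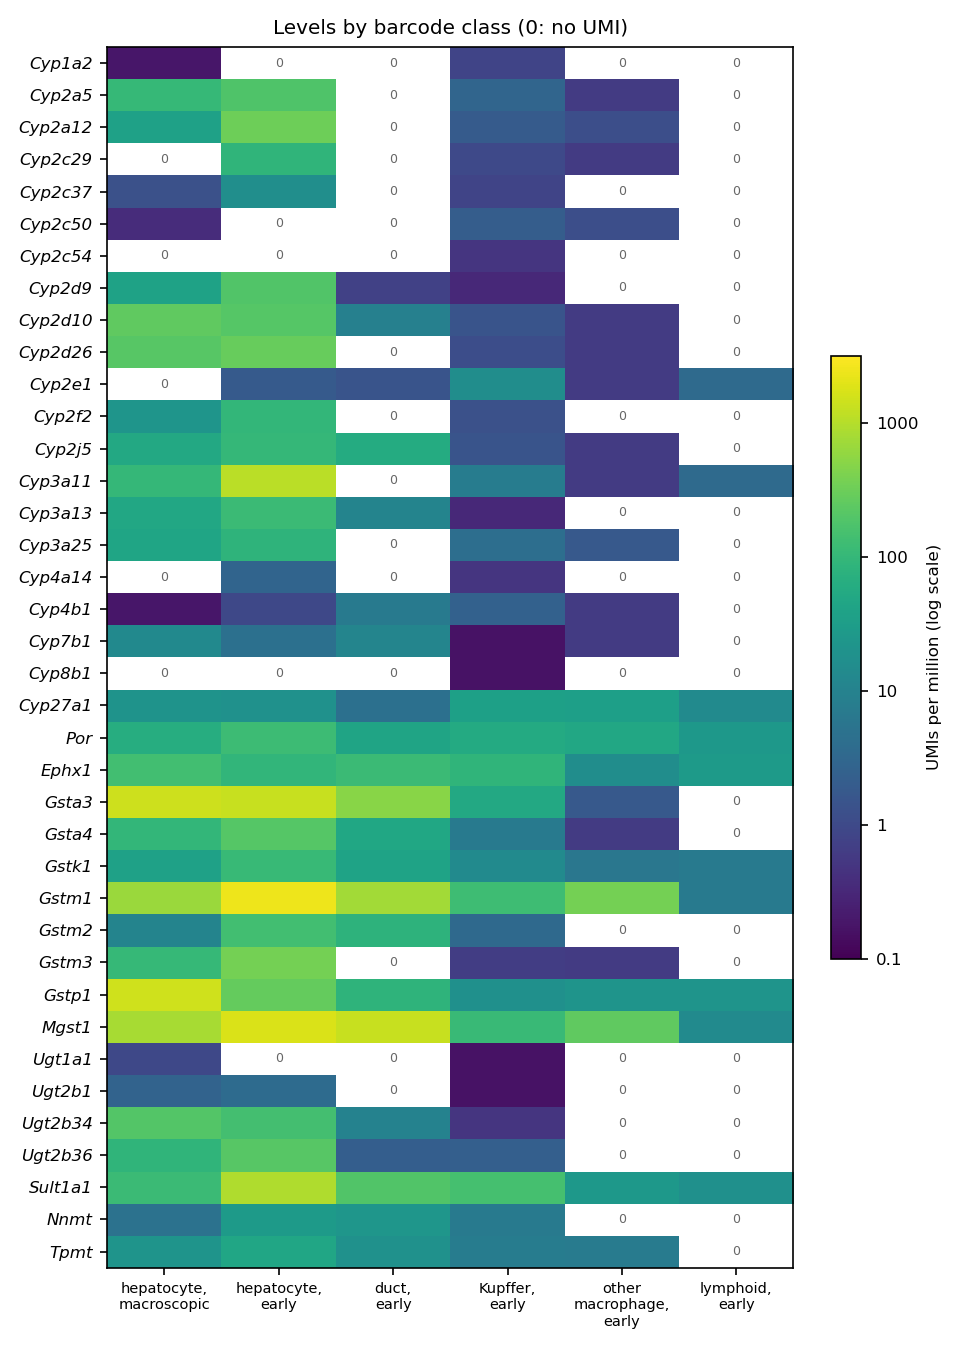
Levels by barcode class, in CPM on a log colour scale, with 0 where a class had no UMI. In the early library Cyp3a11 had 1079.9 CPM in hepatocyte and 0 in duct barcodes, whereas Mgst1 had 1748 and 1311 CPM.

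Within the early library, most of the genes were lower in duct than in hepatocyte barcodes, the P450 genes more so than the glutathione transferases. The P450 sum was 2784 CPM in hepatocyte and 104 CPM in duct barcodes, the glutathione transferase sum 6615 and 2817 CPM, and the Ugt2b sum 362 and 12.0 CPM. Of 28 measured genes, 14 were so through 1 sum only, and for those the filter fixed the direction. Of the 28, 22 were higher and 1 lower by 2-fold or more in hepatocyte than in duct barcodes. Of 9945 measured genes, 10.1% were higher and 23.5% lower. The median log2 ratio was 2.19, and -0.40 over all. Cyp2a5, Cyp2a12, Cyp2c29, Cyp2d26, Cyp2f2, Cyp3a11, Cyp3a25 and Gstm3 had 0 UMIs in 89 duct barcodes, where 0 allows up to 2.25 CPM. Cyp3a11 was at least 479-fold higher in hepatocyte barcodes, and Cyp2d10 had 207 CPM in hepatocyte and 9.01 CPM in duct barcodes. The 5 genes that stood within 2-fold were Mgst1 (1748 CPM hepatocyte and 1311 CPM duct), Gstm2 (135 and 81.1 CPM), Cyp2j5 (97.6 and 59.3 CPM), Ephx1 (90.1 and 116 CPM) and Nnmt (28.8 and 23.3 CPM). Gstm1 was 3.26-fold higher (3.03 to 3.51) in hepatocyte barcodes, Gsta3 2.67-fold higher (2.43 to 2.93) and Sult1a1 4.86-fold higher (4.23 to 5.60), with 757, 495 and 189 CPM in duct barcodes. The lower gene was Cyp7b1, at 4.65 CPM in hepatocyte and 11.3 CPM in duct barcodes on 5 and 15 UMIs, with an interval that holds 1 (ratio 0.412, 0.117 to 1.19).

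The 10 early hepatocyte barcodes that also met the duct rule (median 11025 UMIs) had conjugating genes and few P450 UMIs. Cyp2a5, Cyp2a12, Cyp2c29, Cyp2d9, Cyp2d10, Cyp2d26, Cyp2f2, Cyp3a11, Cyp3a25 and Gstm3 had 0 UMIs in them; in the other 57 hepatocyte barcodes Cyp3a11 stood at 1224 CPM and Cyp2a12 at 359 CPM. Mgst1 had 1575 CPM in the 10 and 1771 CPM in the others, Cyp2j5 182 and 86.3 CPM, and Gstm2 214 and 124 CPM. Leaving these barcodes out kept all 19 stage calls. Just above the Alb limit, in 17 early barcodes, Cyp3a11 had 246 CPM and Mgst1 1475 CPM, and just below it, in 63, 3.29 and 1411 CPM. In the macroscopic library Gstp1 had 2983 CPM in 18 barcodes just above the limit and 1373 CPM in 13 just below it. Part of the Gstp1 signal thus lay in barcodes the Alb rule left out. Most of those 13 were dominated by mitochondrial RNA (median share 87.7%), unlike the 18 (median share 5.13%). The barcodes on either side of the limit were thus not of like quality, and whether the 13 were whole cells was not tested.

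Kupffer barcodes held a few conjugating enzymes and low counts of hepatocyte P450 genes. Of 29 measured genes, 20 were so through 1 sum only, and for those the filter fixed the direction. Of the 29, 26 were higher and 1 lower by 2-fold or more in hepatocyte than in Kupffer barcodes. Of 9760 measured genes, 29.8% were higher and 22.7% lower. The median was 4.81, and 0.22 over all. Ephx1 was level, at 90.1 CPM in hepatocyte and 87.0 CPM in Kupffer barcodes, and so within 2-fold was Cyp27a1, at 18.6 and 36.4 CPM. Sult1a1 had 151 CPM in Kupffer barcodes, Gstm1 125 CPM, Mgst1 113 CPM and Por 56.4 CPM. In lymphoid barcodes the same genes had 28.5 CPM (Ephx1), 14.2 CPM (Cyp27a1), 17.8 CPM (Sult1a1), 7.12 CPM (Gstm1), 14.2 CPM (Mgst1) and 24.9 CPM (Por). Ephx1, Sult1a1, Gstm1 and Mgst1 thus had higher levels in Kupffer barcodes than in lymphoid ones of like depth (median 2463 and 2612 UMIs).

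Other macrophage barcodes, which carry Gpnmb and Mmp12, held mainly Gstm1 and Mgst1 of the set. The 38 genes summed to 785 CPM there and 731 CPM in Kupffer barcodes, and the glutathione transferases to 642 and 335 CPM. Of 27 measured genes, 20 were so through 1 sum only, and for those the filter fixed the direction. Of the 27, 26 were higher and 0 lower by 2-fold or more in hepatocyte than in other macrophage barcodes. Of 9275 measured genes, 33.7% were higher and 16.9% lower. The median was 6.20, and 0.48 over all. The remaining gene was Cyp27a1, at 18.6 CPM in hepatocyte and 34.9 CPM in other macrophage barcodes. Gstm1 and Mgst1 were the most abundant, at 361 and 249.8 CPM, above their 125 and 113 CPM in Kupffer barcodes, and Por had 50.8 CPM. Gsta3 (1.84 CPM) and Sult1a1 (25.1 CPM) were lower there than in Kupffer barcodes, where they had 52.5 and 151 CPM. Among further genes, Cyp4f18, a P450 gene of the fatty acid hydroxylase family, had 0.929 CPM in hepatocyte and 225 CPM in other macrophage barcodes.

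Cyp2e1 was the 1 measured gene lower by 2-fold or more in hepatocyte than in Kupffer barcodes, and Cyp27a1, given above, was lower within 2-fold. In early Kupffer barcodes Cyp2e1 had 98 UMIs in 88 of 1832 barcodes, or 16.1 CPM (13.1 to 19.7). The level in hepatocyte barcodes was 1.86 CPM on 2 UMIs, a hepatocyte to Kupffer ratio of 0.115 (0.0138 to 0.428). With equal weight per barcode the means were 14.7 CPM in hepatocyte and 17.0 CPM in Kupffer barcodes, within 2-fold, and the gene was no longer called. That hepatocyte mean rests almost wholly on 1 UMI, in a shallow barcode where it makes 958 CPM. Elsewhere in the early library Cyp2e1 had 2 UMIs in duct barcodes, where 1 UMI makes 0.751 CPM. It had 1 in other macrophage barcodes, where 1 UMI makes 0.612 CPM. Both counts were below the Kupffer level. In lymphoid barcodes, a smaller sum, Cyp2e1 had 1 UMI (3.56 CPM, 0.0901 to 19.8), with an interval that holds the Kupffer level. The share of barcodes with a Cyp2e1 UMI was 4.80% (3.87 to 5.88) in Kupffer and 1.01% (0.0256 to 5.50) in lymphoid barcodes. A difference between Kupffer and lymphoid barcodes was thus not detectable at this depth.

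P450 UMIs were also set against those of Alb, which had 1485 UMIs in Kupffer and 21916 UMIs in hepatocyte barcodes of the early library. Alb itself sorted barcodes into these classes, so the ratios below are a description and nothing is read from their distance to 1. Among hepatocyte genes outside the 38, the Kupffer to hepatocyte ratio of UMIs per Alb UMI was 0.430 for Apoa1, 0.321 for Ttr, 0.287 for Ahsg and 0.224 for Fgb, which encode secreted proteins. It was 19.4 for Pck1, 29.1 for Hpd and 485 (219 to 1336) for Rgn, which had 6 UMIs in hepatocyte barcodes. All of these genes were chosen after their values were seen, and Pck1, Hpd and Rgn also define a group of Kupffer barcodes described below. Of the 17 P450 genes with a UMI in hepatocyte barcodes, Cyp3a11 had 32.3 (23.8 to 42.9) UMIs per 1000 Alb UMIs in Kupffer and 53.0 (50.02 to 56.2) in hepatocyte barcodes, a ratio of 0.610. Cyp2d9 had the lowest ratio, 0.144, on 2 UMIs in Kupffer barcodes. Cyp2e1 had the highest: it had 66.0 (53.6 to 80.4) UMIs per 1000 Alb UMIs in Kupffer and 0.0913 in hepatocyte barcodes, 723-fold (195 to 6055) higher. Cyp4b1 (221-fold (34.1 to 9319) on 15 and 1 UMIs) and Cyp27a1 (163-fold (103 to 272)) came next. Cyp2c50 had 13 UMIs in Kupffer and 0 in hepatocyte barcodes, and Cyp1a2 had 5 and 0.

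**Figure D4:**
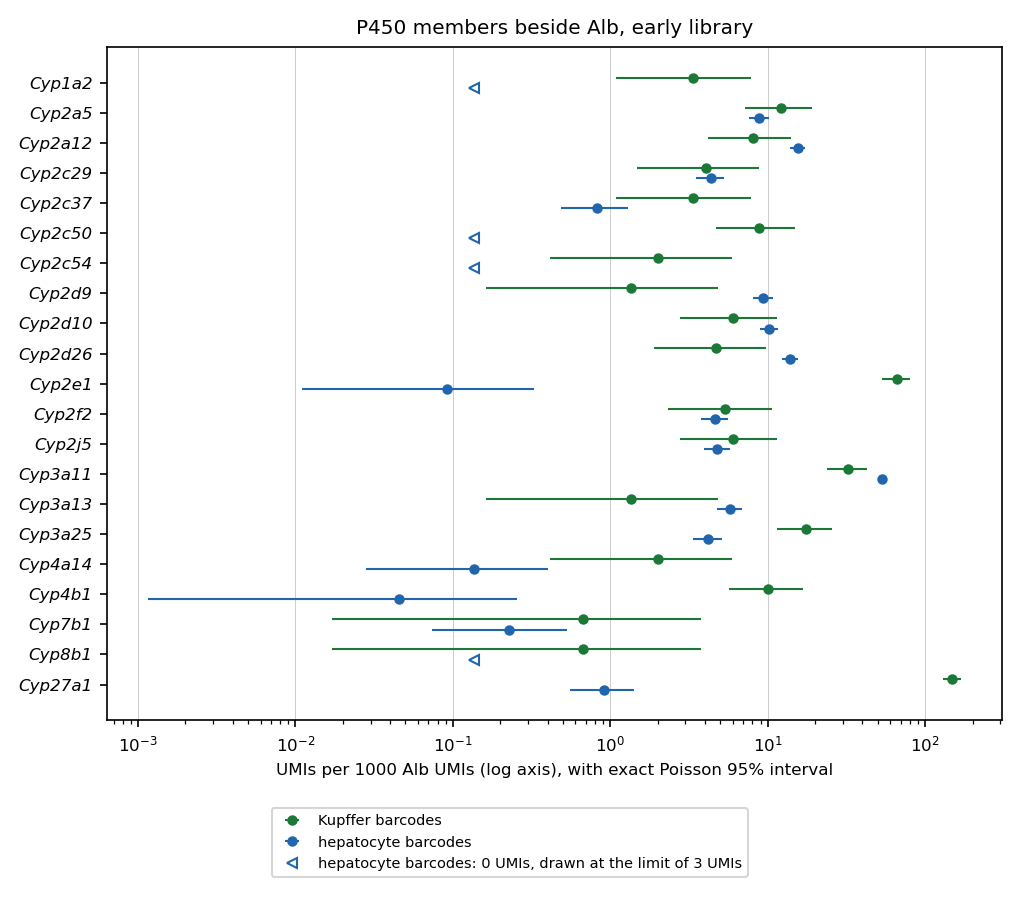
UMIs of P450 genes per 1000 Alb UMIs in Kupffer and hepatocyte barcodes of the early library, on a log axis, with exact 95% intervals. Cyp2e1 had 66.0 in Kupffer and 0.0913 in hepatocyte barcodes, while Cyp3a11 had 32.3 and 53.0.

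Kupffer barcodes with at least 2 UMIs of Rgn, Pck1 and Hpd in sum numbered 192 of 1832. Cyp2e1 had 42.0 CPM in them and 12.5 CPM in the rest, Cyp3a11 20.3 and 6.18 CPM, and Gsta3 169 and 36.3 CPM. Ephx1 (80.0 and 88.0 CPM), Por (58.3 and 56.2 CPM) and Mgst1 (93.5 and 116 CPM) did not differ by 2-fold between those groups. Without the 192 barcodes all 27 calls between hepatocyte and Kupffer barcodes were kept. The source of the Rgn, Pck1 and Hpd RNA in these barcodes was not tested.

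Hepatocyte barcodes of 1 library varied widely among themselves, and the ranges here hold barcodes of unlike quality. At most 25% mitochondrial UMIs were found in 88 of 103 macroscopic and 62 of 67 early hepatocyte barcodes. The early ones also include the 10 that met the duct rule, all without Cyp3a11. Cyp3a11 in early barcodes had a median of 604 CPM, a highest value of 3918 CPM and no UMI at its lower quartile, with a coefficient of variation (CV) of 1.08 where counting alone gives 0.388. In macroscopic barcodes its median was 13.3 CPM and its highest value 972 CPM (CV 1.77, counting 0.898). The highest macroscopic barcode was thus below the early upper quartile of 1476 CPM. Gstp1 spanned 0 to 9783 CPM in macroscopic barcodes, with a median of 1431 CPM, and 0 to 878 CPM in early ones, with a median of 221 CPM. The macroscopic median of Gstp1 exceeded every early barcode.

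**Figure D5:**
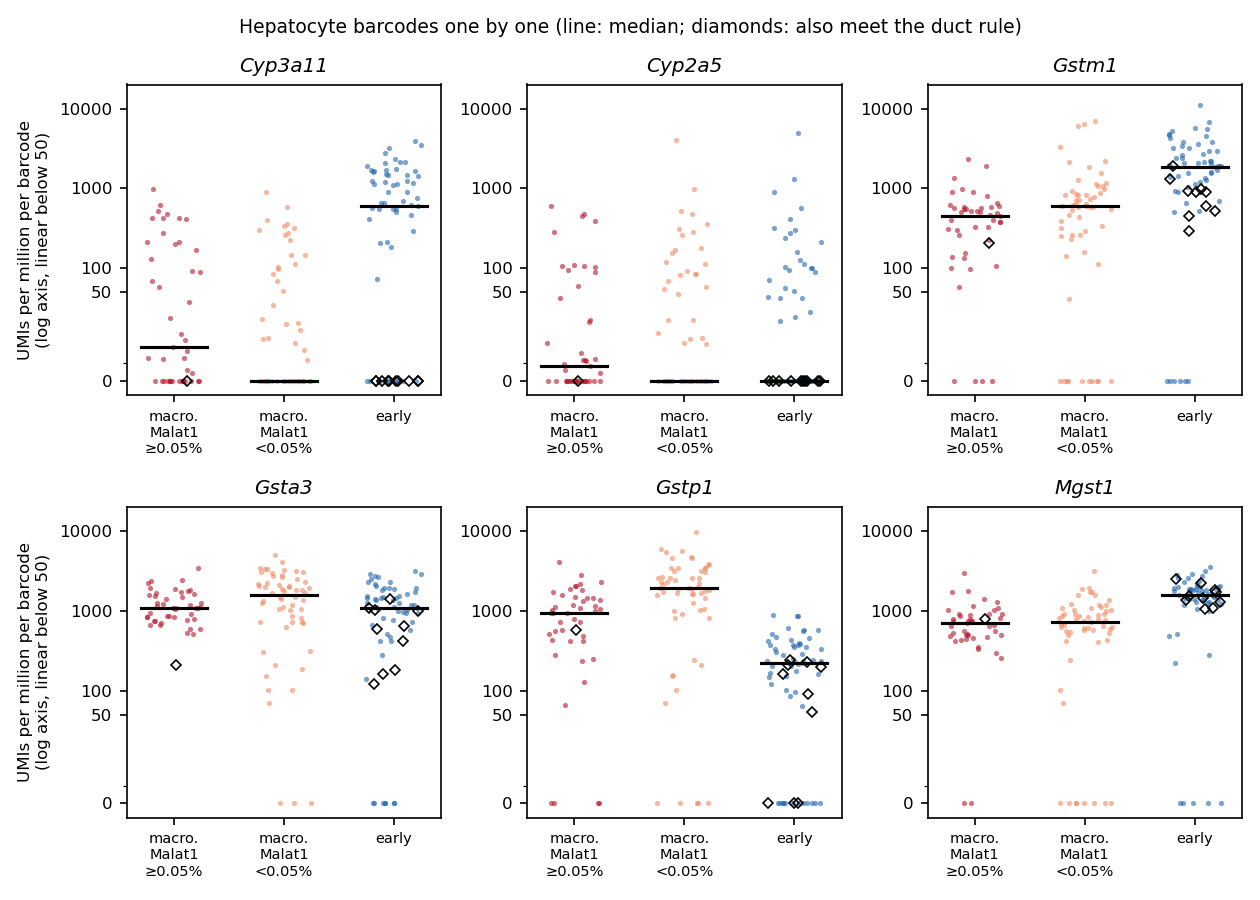
CPM of 6 genes in each hepatocyte barcode, on an axis linear below 50 CPM and logarithmic above, for macroscopic barcodes with more and with less Malat1 and for early barcodes; lines mark medians and diamonds the barcodes that also met the duct rule. Gstp1 medians were 944 and 1898 CPM in the macroscopic groups and 221 CPM over early barcodes.

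Mgst1 was even by comparison, with a median of 712 CPM and a CV of 0.708 in macroscopic barcodes and 1591 CPM and 0.480 in early ones. Gsta3 had CVs of 0.668 and 0.700, and Gstm1 ranged up to 7054 and 11107 CPM. Cyp2a5 was uneven: 1 barcode held 29.9% of its UMIs in the macroscopic and 46.4% in the early library, with CVs of 3.65 and 3.92. Its library levels therefore rest on few cells. Gstm3 in the early library was similar, with a median of 59.9 CPM, a highest value of 4249.6 CPM and 22.9% of UMIs in 1 barcode. Summed over the 21 P450 genes, barcodes had a median of 725 CPM in the macroscopic and 1978 CPM in the early library, with 5 and 7 barcodes at 0. Of the 5 macroscopic ones, 4 had Malat1 below 0.05% of UMIs, and of the 7 early ones, 4 had Malat1 at 0.05% or more. The glutathione transferase sum had medians of 4220.3 and 5433 CPM.

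Across the 63 early hepatocyte barcodes with Malat1 at 0.05% or more, several P450 genes, but not Cyp2j5, ranked barcodes in a similar order. The patterns most like that of Cyp3a11 among 21 genes compared were those of Cyp2d26, Cyp2a12 and Cyp3a25, with Spearman's rho of 0.76, 0.70 and 0.70; the closest P450 pair was Cyp2d26 with Cyp3a25, at 0.79. Cyp2j5 had -0.19 with Cyp3a11, -0.18 with Cyp2d26 and -0.23 with Alb. These 63 include the 10 barcodes that met the duct rule, all without Cyp3a11. In the other 53, chosen after seeing the data, rho with Cyp3a11 was 0.65 for Cyp2d26, 0.54 for Cyp2a12, 0.60 for Cyp3a25 and -0.03 for Cyp2j5. For Cyp2d10, Cyp2d9 and Cyp3a13 it was weaker there, at 0.36, 0.29 and 0.17, so not all of the P450 genes kept a similar order. Alb and depth moved with these genes, at 0.65 and 0.51 for Cyp3a11 over the 63 and 0.46 and 0.43 over the 53, and their part in these values was not tested. In 45 macroscopic barcodes the closest pairs among 24 genes were Gstm3 with Gstp1 at 0.67 and Gstm2 with Gstm3 at 0.58, and Cyp3a11 had 0.49 with Alb and 0.02 with total UMIs. Barcodes of 1 library share that library, so these values describe it only.

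Near-identical relatives can share reads, since 98-base reads from the last 500 bases of a transcript may fit more than 1 gene. By comparison of all 98-base windows in GENCODE M21 transcripts, on the build GRCm38 used for the gene positions above, 26 of the 38 genes shared no window with another gene. Ugt1a1 shared all of its windows with the other Ugt1a genes, whose last exons are common, so its few UMIs do not give its level. Gstp1 shared 29.9% with Gstp2, which had 19 UMIs in macroscopic and 2 in early hepatocyte barcodes. Cyp2a5 shared 12.7% with Cyp2a4, Cyp2d10 11.1% with Cyp2d11 and Gstm1 3.10% with Gstm3. The levels of these genes are therefore uncertain. A share of windows counts sequence and not reads, so it does not give the size of that error. Cyp3a11, Gsta3, Mgst1, Sult1a1, Ugt2b34 and Cyp2c29 shared none. UMI counts of 3′ ends are not divided by length, so an order between genes is one of counted transcripts.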

How the data were processed

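The data are single-cell RNA-seq of YFP+ liver cells, 1 library of macroscopic and 1 of early lesions, as deposited UMI counts per gene and barcode, whole numbers with no normalization. Per the submitters' processing notes, Cell Ranger 3.0.2, the build mm10 and Seurat 2.3.0 were used, with no role given for Seurat; no source used here names the gene annotation. Barcodes with at least 1000 UMIs were classed by the rules in the report; a barcode with less Alb that met more than 1 other rule entered no class (3 macroscopic and 98 early). Lymphoid barcodes had at least 2 UMIs of Cd3d, Cd3e, Cd3g, Cd79a, Cd79b and Ms4a1 and met no other rule. No doublet caller was run. The macroscopic library held 256 barcodes and 7271368 UMIs, the early library 3221 and 12637053.

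UMIs were summed per class and divided by the sum's total to give CPM. Intervals are exact at 95%: Poisson for CPM, conditional binomial for ratios, Clopper-Pearson for shares. A sum of 0 was replaced by 3 counts and the ratio is then a bound; pairs of sums with 3 UMIs or fewer each have no fold. With 1 library per stage there is no test. Thinned shares are exact hypergeometric expectations. All 38 genes are named; of the further list, the 5 most abundant, the 3 highest and the 3 lowest ratios; of other lists up to 4 genes with many UMIs, and beyond that rule Cyp4f18, Gstp2 and the hepatocyte genes set beside Alb, chosen after their values were seen. The genes, classes and lists were chosen with earlier results of these data known. Alternatives changed the depth, mitochondrial, Alb and Malat1 limits, weighting, scaling, filter and class rules. The code was tested on simulated data. Python 3.11.15, numpy 2.4.6, scipy 1.17.1 and pandas 2.3.3 were used. Promoters are from RefSeq and transcripts from GENCODE M21.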

Additional observations from a re-analysis of the deposited data

Results flagged for a closer look

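Cyp2e1 was found in data the comparisons left out. In the 601 early barcodes with fewer than 1000 UMIs it had 15 UMIs in 13 barcodes, or 34.5 CPM (19.3 to 56.9), above the 6.90 CPM that a count of 0 allows. Kupffer barcodes had 16.1 CPM (13.1 to 19.7), and the intervals overlap. The cells behind these barcodes were not classed. In their sum, Kupffer markers stood at 9288 CPM, other macrophage markers at 3561 CPM, hepatocyte markers at 794 CPM and duct markers at 219 CPM. Red cell markers stood at 14588 CPM. Groups of 1 library allow no search for outlying samples.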

How the results depend on the processing

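No paired analysis was possible because each stage has 1 library and no result comes from a test. Of the counts, medians and shares over the gene set, 158 values under an alternative were the same and 17 moved; none reversed. For macroscopic over early, the higher count was 1 at a 50 CPM minimum in place of 2. For Malat1, median-of-ratios scaling gave 1 higher, 14 lower and a median of -1.04, and an Alb limit of 1% gave 1 lower. For hepatocyte over duct the lower count was 0 under equal weight per barcode, median-of-ratios scaling, a 50 CPM minimum, doubled limits and without the hepatocyte barcodes that met the duct rule. For Kupffer it was 2 under median-of-ratios scaling and 0 at 50 CPM. For other macrophages it was 1 under equal weight and 1 under median-of-ratios scaling. Genes of the set in at least 10% of hepatocyte barcodes numbered 8 macroscopic and 15 early thinned to 1000 UMIs. Thinned to 2000 they numbered 14 macroscopic and 24 early, and no count over all genes stands beside these. The cause was not tested, except that thinning and the higher minimum by construction remove counts or genes. For single genes 1399 values were the same and 164 moved. Leaving out the duct-rule barcodes, early barcodes with little Malat1, or the 10 deepest macroscopic barcodes was chosen after seeing the data. Replicates and animals are missing, and sex, pooling and depth differ with stage. Mouse-to-mouse error is unknown, and genes under 10 CPM in early hepatocyte barcodes rest on few UMIs. There 1 UMI makes 0.929 CPM, against 0.190 CPM in the macroscopic hepatocyte sum.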

Other observations

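Macroscopic barcodes that met no class rule (100 barcodes, median 11704 UMIs) held glutathione transferase RNA and little P450 RNA. In them Gsta3 had 1042 CPM (989 to 1096), Gstp1 1056 CPM (1003 to 1111) and Gstm1 298 CPM, while Cyp3a11 had 7.78 CPM, Cyp2d10 9.90 CPM and Mgst1 125 CPM. In 26 macroscopic lymphoid barcodes Gsta3 had 11.6 CPM and Gstp1 123 CPM. Cyp4b1, nearly absent from hepatocyte barcodes, had 24 UMIs (17.0 CPM) in these unclassed macroscopic barcodes, and 15 UMIs in early Kupffer and 9 in early duct barcodes.

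Some further drug-metabolism genes were higher outside hepatocytes in the early library. Cyp2s1 had 0 UMIs in hepatocyte and 47 UMIs (35.3 CPM) in duct barcodes, the flavin monooxygenase gene Fmo2 61.3 and 184 CPM, the carboxylesterase gene Ces1d 179 and 457 CPM, and Gstm5 74.3 and 183 CPM. Gsto1, an omega class transferase gene, had 34.4 CPM in hepatocyte, 104 CPM in other macrophage and 73.7 CPM in Kupffer barcodes. These genes were picked for their values from the further list.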
